A study of Homo sapiens with 9 samples.

Results

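Regulators of G protein signalling (RGS proteins) end the signal that a G protein-coupled receptor sends into the cell. A receptor that has bound its ligand loads the G alpha subunit with GTP, and an RGS protein binds the loaded subunit and speeds the hydrolysis of that GTP. Small members of the R4 subfamily (RGS2, RGS3, RGS4, RGS5 and RGS16) act on Gi and Gq subunits, with RGS2 favouring Gq, and several of them are short-lived proteins. The RZ subfamily (RGS17, RGS19 and RGS20) acts on Gz and other Gi-class subunits, and the R12 subfamily (RGS10 and RGS12) acts on Gi-class subunits. RGS5 is widely used as a marker of pericytes, and RGS4 is known from neurons and heart.

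Followed here were 10 of these genes, out of the 18970 gene symbols in the deposited tables. RGS4 was picked by its late rise of newly made RNA in these samples, so its values are given as a description and carry no test. The other 9 genes were taken as further members of the family to set beside it. Of these, 8 passed the filter on low counts (a minimum of 1 CPM, counts divided by the library total and scaled to a common sum, in 3 samples), and RGS20 did not. The other RGS genes of the family (11 symbols) were mostly silent, and 3 of them passed the filter for newly made RNA.

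The cells were cranial neural crest cells (CNCCs), the embryonic population that builds most of the face, obtained by differentiating the established human embryonic stem cell line H9. All groups carried the same degron tag on the transcription factor SOX9, in clones S9CC13 and S9CC47 of the tagged line. The tag lets the small molecule dTAGV-1 bring SOX9 to a ubiquitin ligase for degradation. Groups were set by time in 500 nM dTAGV-1 (0h, 3h or 24h). The labels put the relative SOX9 level at 100% for the first group and at 0% for both later groups, and the protocol describes DMSO vehicle for cells without the compound. Each group held the same 3 cultures, S9CC13_R6, S9CC47_R5 and S9CC47_R6, which cover 2 clones of 1 parental line and 2 differentiation batches (R5 and R6). In SLAM-seq, cells take up 4-thiouridine, which reads as a T>C conversion after alkylation, so that T>C reads count newly made RNA and total reads count all RNA. Label (100 uM) was present for 2 h, added 1 h into the treatment for the earlier time and 22 h into it for the later time.

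Libraries held 16955633 to 28782678 total reads and 3130673 to 5475800 T>C reads. The T>C share of a library was lowest in S9CC13_R6 at 3h, at 15.9%, and highest in S9CC47_R6 at 24h, at 21.3%. Of 12 cranial neural crest markers, 11 were at 1 CPM or more in every sample, and SOX10 was under 1 CPM everywhere. The summed level of that list ranged from 3740 to 3880 CPM at 0h and from 4970 to 5440 at 24h. SOX9 is on the list, and without it the sum was 2970 to 3140 CPM at 0h and 3340 to 3660 at 24h. SOX9 mRNA itself, which the degron does not target, stood at 9789 ± 258 normalized T>C reads before dTAGV-1 and 21450 ± 1890 after 24h (SD over 3 cultures). Endothelial and blood marker lists (4 genes each) had no gene at 1 CPM in every sample. Of 5 stem cell genes, POU5F1, NANOG and TDGF1 were under 1 CPM in every sample. The other 2, LIN28A and DPPA4, were at 1 CPM or more in every sample. That list summed to 350 to 414 CPM at 0h and 281 to 306 at 24h. Of 8 neural progenitor and neuron markers, 3 were at 1 CPM or more in every sample. Their list summed to 80.8 to 91.5 CPM at 0h and 60.4 to 86.5 at 24h. Read counts below are normalized reads, that is counts divided by the library's size factor. A gene was called at a DESeq2 adjusted p-value under 0.1, adjusted over all genes tested.

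The R4 genes RGS4 and RGS5 are neighbours on chromosome 1 (hg38). RGS4 runs from 163068775 to 163076802 on the plus strand and RGS5 from 163111121 to 163321791 on the minus strand, taking the outermost bounds of all annotated transcripts. The starts of their canonical transcripts lie 133.6 kb apart, and the outermost starts 253.0 kb. Their promoters are printed here because these genes had the highest changes of total reads among the 9 tested members. Each run holds the 250 bases before the start of the gene's canonical transcript, from RefSeq on GRCh38.p14. Capitals mark the CCAAT box (CCAAT, or ATTGG on the other strand) and the TATA motifs, which are TATAAA in RGS4 and TATATA in RGS5.
RGS4 promoter, chr1:163069111-163069360, plus strand: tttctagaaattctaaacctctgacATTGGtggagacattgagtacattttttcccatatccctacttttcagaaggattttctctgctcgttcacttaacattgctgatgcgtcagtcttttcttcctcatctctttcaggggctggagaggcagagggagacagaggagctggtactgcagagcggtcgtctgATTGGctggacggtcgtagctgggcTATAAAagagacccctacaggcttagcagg
RGS5 promoter, chr1:163202917-163203166, minus strand: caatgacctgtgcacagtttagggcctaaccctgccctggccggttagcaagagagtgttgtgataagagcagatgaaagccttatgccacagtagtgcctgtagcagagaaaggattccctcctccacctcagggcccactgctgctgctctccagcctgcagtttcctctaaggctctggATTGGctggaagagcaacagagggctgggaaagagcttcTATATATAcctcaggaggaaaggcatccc

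The last 109 bases of the RGS4 window are also coding exon in the GENCODE transcript RGS4-204. The RGS4 window held TATAAA with its first base at -30 and ATTGG at -55 and -225, counted from the start. In the RGS5 window TATATA began at -29 and again, overlapping, at -27, and ATTGG at -68. The longest run the windows shared was 11 bases, gattggctgga, which begins at -56 in RGS4 and at -69 in RGS5 and contains the ATTGG. Runs of at least 11 bases were also shared by 8 other pairs among the 36 pairs of members, the longest being 13 bases (RGS2 and RGS16). Both strands were searched in 35116 RefSeq promoters of the same length: 32.008% held a CCAAT box, 10.716% TATAAA and 3.73% TATATA.

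A promoter at the canonical start was found for 9 of the 10 members. RefSeq lists several promoters for RGS3 and RGS12 (5 each), RGS4 (4), and RGS5, RGS10 and RGS19 (2 each). Only the window at the canonical start was read for each member. All 5 R4 members (RGS2, RGS3, RGS4, RGS5 and RGS16) held a CCAAT box in that window, and RGS10, RGS12, RGS17 and RGS19 held none there. TATAAA was found in RGS4 alone and TATATA in RGS5 alone of the 9. ACAATG and ACAAAG, core letters bound by SOX factors, were in none of the 9 windows and in 9.286% and 13.717% of all promoters. GC content was 47.6% in the RGS4 window and 53.6% in that of RGS5, against a median of 58.0% over all promoters and 68.4% to 84.0% in the other 7 members. These are descriptions of the letters in a short window and not of binding.

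RGS4 was higher in all 3 cultures at 24h than at 0h, in both newly made and total RNA, while the cultures differed at 3h. In T>C reads at 3h, S9CC13_R6 stood at 2.67 times its 0h level, S9CC47_R5 at 0.889 and S9CC47_R6 at 0.859 times. Before dTAGV-1, its normalized T>C reads were 41.68 in S9CC13_R6, 110.0 in S9CC47_R5 and 69.32 in S9CC47_R6. The 3h libraries had 111.1, 97.88 and 59.51 and the 24h libraries 266.4, 287.7 and 386.7, with cultures listed in that order throughout. The 0h and 3h values overlapped, while the lowest 24h value lay above the highest value at either earlier time. Means with SD over the 3 cultures were 73.68 ± 34.39, 89.51 ± 26.81 and 313.6 ± 64.22 for the successive times. Behind the S9CC13_R6 value at 0h stood 40 T>C reads, and behind the S9CC47_R6 value at 24h 522.

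Total reads of RGS4 showed the same order. The 0h libraries had 91.86, 156.6 and 172.0, the 3h libraries 186.2, 163.0 and 150.8, and the 24h libraries 506.2, 585.8 and 721.1. At 3h the cultures stood at 2.03, 1.04 and 0.877 times their own 0h level, and at 24h at 5.51, 3.74 and 4.19 times. Against 0h, the log2 fold change at 24h was 2.16 (SE 0.472) in T>C reads, 2.05 (SE 0.212) in total reads and 2.10 (SE 0.278) in unconverted reads, the reads without a conversion, where it was 2.81 with S9CC13_R6 left out. Within cultures, the fold in T>C reads was 6.39 in S9CC13_R6, 2.61 in S9CC47_R5 and 5.58 in S9CC47_R6. The early log2 value, 3h against 0h, was 0.31 (SE 0.46) for T>C reads and 0.28 (SE 0.21) for total reads. Between 3h and 24h it was 1.85 for T>C reads, and 0.98 when S9CC47_R6 was left out. The 3 comparisons share samples and are not independent of each other. In bulk libraries such as these, more cells that express a gene and more RNA per cell cannot be told apart.

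**Figure D1:**
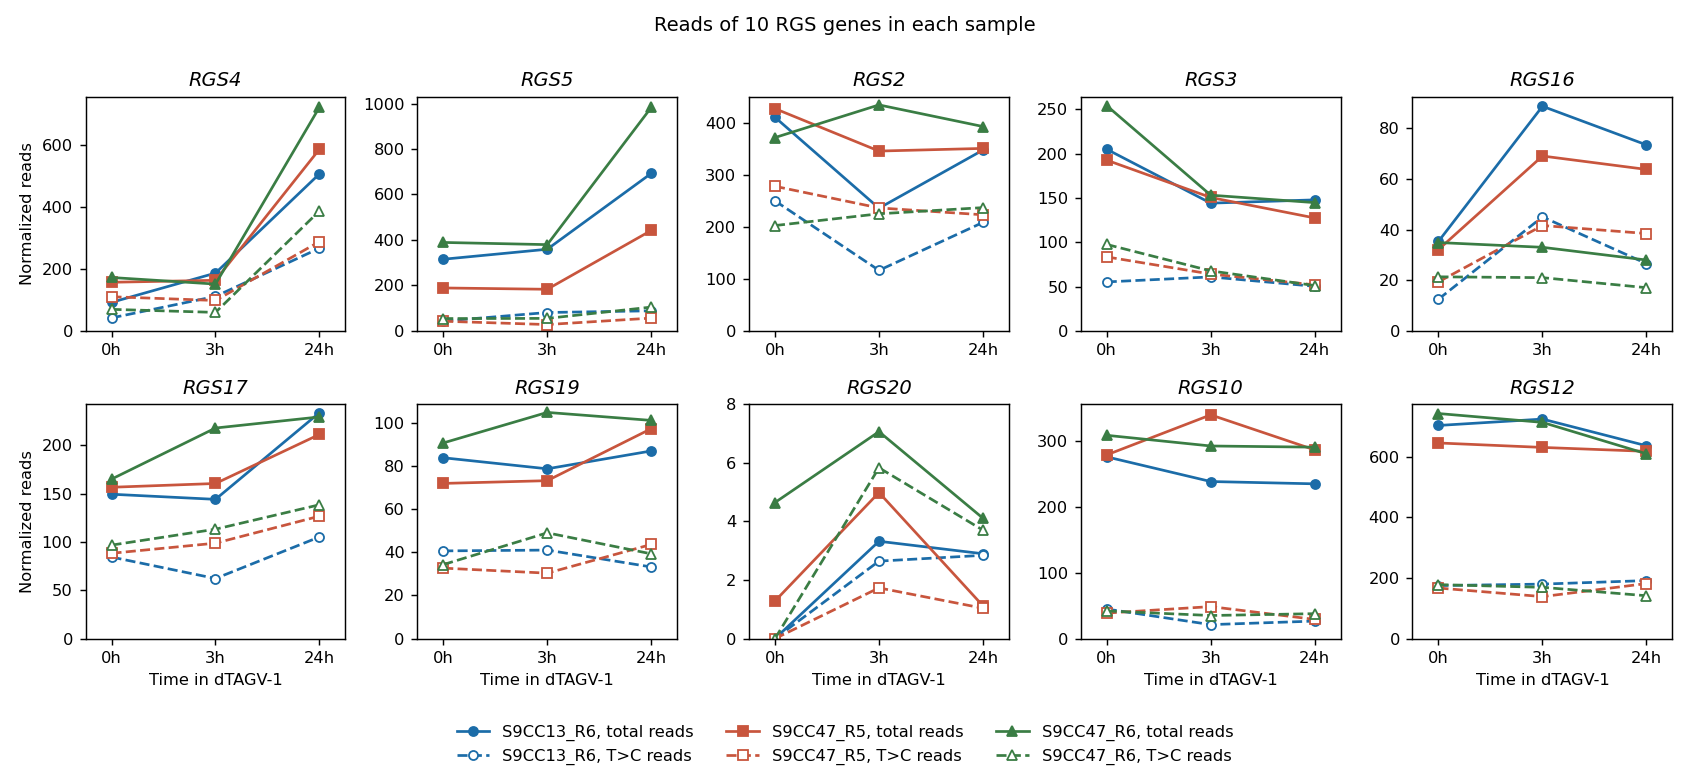
Normalized reads of the 10 RGS genes (vertical axis, linear and scaled per gene) at 0h, 3h and 24h of dTAGV-1. Each line is a culture, with filled points for total reads and open points for T>C reads. RGS4 and RGS5 total reads were highest at 24h in all 3 cultures, RGS3 total reads were highest at 0h in all 3, and RGS16 stayed between 27.96 and 34.86 in S9CC47_R6 while it was higher in the other cultures at 3h and 24h. The times are evenly spaced on the axis and not to scale.

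Among the other members, no gene was called in newly made RNA at any time. At 3h against 0h, 0 of the 8 tested members were called in T>C reads, where 1.79% of all 12037 tested genes were called (DESeq2). Of the 8, 0 had an unadjusted p-value under 0.05, beside 7.33% of all genes. At 24h against 0h it was again 0 of 8, beside 4.98% of all genes, and at 24h against 3h 0 of 8, beside 1.14%. An unadjusted p-value under 0.05 was reached at 24h against 0h by 2 members (RGS3 and RGS5), beside 13.6% of all genes, and at 24h against 3h by 1 (RGS5), beside 8.14%. edgeR called 0 members at 3h and 1 at 24h, RGS5. Over all genes it called 288 at 3h and 968 at 24h, where DESeq2 called 216 and 599. The median log2 fold change over the 8 members at 24h was 0.07 in T>C reads, with a range from -0.69 to 0.84, and that of all genes was 0.00147.

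In total reads at 24h against 0h, 3 of the 8 members were called, RGS5 and RGS16 higher and RGS3 lower, where 15.0% of all 11710 tested genes were called. At 3h against 0h, 0 of 8 were called beside 1.89% of all genes, and 1 (RGS3) had an unadjusted p-value under 0.05, beside 8.22%. At 24h against 3h, 1 of 8 (RGS5) was called beside 5.39% of all genes. In unconverted reads, 0 of 8 were called at 3h, beside 1.10% of all genes, and 2 of 8 (RGS5 higher, RGS3 lower) at 24h, beside 12.1%. With so few members, these counts describe the named genes and not the family.

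RGS5, the pericyte marker of the R4 subfamily, rose late and in all 3 cultures. The 0h libraries of S9CC13_R6, S9CC47_R5 and S9CC47_R6 had 315.0, 188.7 and 388.9 total reads. Those of 3h had 359.0, 182.9 and 379.3, and those of 24h 692.6, 441.6 and 982.6. S9CC47_R5 was the lowest culture at each time, and the 24h values lay above all values at 0h and 3h. Within cultures, total reads at 24h were 2.2, 2.34 and 2.53 times those at 0h, in the same order. This was a log2 fold change of 1.16 for 24h (SE 0.152, DESeq2 adjusted p = 3.78e-12), whereas the value for 3h was 0.07 (SE 0.148, adjusted p = 0.987). The 24h and 3h values differed by 1.09 (SE 0.16, adjusted p = 3.74e-09). Within batch R6 alone (S9CC47_R5 left out) the 24h value against 0h was 1.06 (adjusted p = 0.00025), and batch R5 held 1 culture. With S9CC47_R6 left out, it was 1.15 and not past the threshold (adjusted p = 0.362), in a fit that called 56 genes in all.

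At 0h the median gene had a T>C share of 26.98% and RGS5 had 17.03%, so most RGS5 reads carried no conversion. The T>C reads numbered 42.72, 42.32 and 54.08 before dTAGV-1, then 80.7, 27.72 and 54.85, and finally 88.18, 56.08 and 104.5. Every culture was higher at 24h than at 0h and the groups did not overlap, but the 3h values spanned most of that range. For T>C reads the 24h log2 fold change was 0.84 (SE 0.335) and not past the threshold in DESeq2 (adjusted p = 0.171). edgeR gave 0.86 and an adjusted p of 0.0555, which is past it. In unconverted reads it was 1.23 (SE 0.16, DESeq2 adjusted p = 3.96e-12). The log2 ratio of T>C to unconverted reads moved by -0.52 (SE 0.287, limma adjusted p = 0.845), which did not pass the test.

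RGS5 is also expressed by pericytes and smooth muscle, so their markers were read in the same libraries. Of 10 such markers, 6 were at 1 CPM or more in every sample, and MYH11, DES, KCNJ8 and ABCC9 were under 1 CPM everywhere. The summed level of the list was 145 to 166 CPM at 0h, 157 to 218 at 3h and 158 to 240 at 24h. For T>C reads at 24h, PDGFRB was called higher (0.52, DESeq2 adjusted p = 0.00192) and TAGLN lower (-1.34, adjusted p = 0.0617). In total reads PDGFRB was higher and TAGLN and CSPG4 lower. PDGFRB was already called higher at 3h, by 0.65 in T>C reads (DESeq2 adjusted p = 1.27e-05) and 0.52 in total reads (adjusted p = 2.52e-06). The part of these cells in the RGS5 result was not tested.

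RGS3, an R4 member with longer isoforms, fell in total reads at 24h. Its total reads before dTAGV-1 were 204.9, 192.6 and 254.1 in S9CC13_R6, S9CC47_R5 and S9CC47_R6. They numbered 144.1, 150.5 and 153.1 in the 3h libraries and 147.8, 127.4 and 144.7 in the 24h libraries. All 6 values after dTAGV-1 lay below the lowest 0h value. DESeq2 gave a log2 fold change of -0.65 for 24h (SE 0.196, adjusted p = 0.0131) and of -0.53 for 3h, which did not pass (SE 0.186, adjusted p = 0.173). Newly made RNA stood at 55.22, 83.44 and 97.5 T>C reads at the start and at 50.25, 51.92 and 51.12 at 24h, a log2 value of -0.69 (SE 0.311) that was not past the threshold (adjusted p = 0.268). The 24h call in total reads was lost when any of the 3 cultures was left out, with values from -0.70 to -0.50. Over all genes those fits called 154 (without S9CC13_R6), 719 (without S9CC47_R5) and 56 (without S9CC47_R6), beside 1751 with all samples.

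RGS16, another R4 member, whose transcript is induced by many stimuli, was low in these cells and differed between cultures. In the usual order of cultures it had 35.33, 32.1 and 34.86 total reads before dTAGV-1, 88.65, 69.02 and 32.98 after 3h, and 73.41, 63.72 and 27.96 after 24h. S9CC13_R6 and S9CC47_R5 stood at 2.08 and 1.99 times their 0h level at 24h, and S9CC47_R6 at 0.802 times. For total reads the 24h log2 fold change was 1.00 (SE 0.342, DESeq2 adjusted p = 0.0389), although the groups overlapped. With the culture as a replicate block it was 0.55 (adjusted p = 0.383), with batch alone 0.67 (adjusted p = 0.382) and with no filter on low counts 0.78 (adjusted p = 0.144). Leaving out any culture also ended the call, with values from 0.95 to 1.27. The fits without a culture called 56 to 719 genes in all, beside 1751 with all samples. T>C reads gave 0.79 for 24h (SE 0.466, adjusted p = 0.484) and 0.77 for 3h (SE 0.451, adjusted p = 0.799). The counts behind these values were 12 to 48 T>C reads per library.

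RGS2, the R4 member that favours Gq, did not pass the test at either time. Total reads of the 3 cultures were 410.9, 427.5 and 371.9 before dTAGV-1, 236.0, 345.9 and 434.7 after 3h, and 347.8, 351.0 and 393.1 after 24h. The groups overlapped, and the lowest value belonged to S9CC13_R6 at 3h. The log2 fold change of total reads at 24h was -0.31 (95% interval -0.61 to -0.02, DESeq2 adjusted p = 0.18), and that of T>C reads was -0.30 (interval -0.67 to 0.07, adjusted p = 0.53).

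Of the RZ subfamily, RGS17 was higher at 24h in all 3 cultures but its call depended on the fit. The cultures had 149.4, 156.6 and 165.0 total reads before dTAGV-1, 144.1, 160.5 and 217.9 after 3h, and 233.8, 211.3 and 229.4 after 24h. The 0h and 24h groups did not overlap, while S9CC47_R6 at 3h already stood within the 24h range. The log2 fold change of total reads at 24h was 0.42 (SE 0.187, DESeq2 adjusted p = 0.141). The replicate block gave 0.52 (adjusted p = 0.0751) and batch alone 0.52 (adjusted p = 0.0938), both past the threshold. For T>C reads it was 0.26 (SE 0.24, adjusted p = 0.736).

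RGS19, also known as GAIP, had 71.9 to 90.65 total reads at 0h, 73.17 to 104.8 at 3h and 86.94 to 101.1 at 24h. Its log2 fold change at 24h was 0.14 in total reads (95% interval -0.37 to 0.65) and 0.09 in T>C reads (interval -0.67 to 0.85). RGS20, the remaining RZ gene, on chromosome 8, had 0 to 6 total reads in each library. Its T>C reads numbered 2, 2 and 5 in the 3h libraries and 3, 1 and 5 in the 24h libraries, where they were all of its reads. These few reads were below the filter and were not tested. At 0h none of its 0, 1 and 6 total reads carried a conversion, and a count of 0 allows up to 3 reads, or 0.555 to 0.879 CPM of T>C reads in these libraries. This limit covers counting error only, because no molecular identifiers are stated.

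The R12 genes did not pass the test in either kind of read. RGS12, a large multidomain member, had 645.8 to 743.0 total reads at 0h and 610.1 to 636.6 at 24h, lower in all 3 cultures without overlap. Its log2 fold change was -0.15 (95% interval -0.37 to 0.07, DESeq2 adjusted p = 0.44). RGS10, a small member known from immune cells and brain, had 275.6 to 308.3 total reads at 0h and 234.7 to 290.3 at 24h, a log2 value of -0.17 (interval -0.49 to 0.15, adjusted p = 0.572). RGS10 T>C reads were 38.7 to 44.8 at 0h and 26.55 to 37.79 at 24h, a log2 value of -0.61 with an interval from -1.40 to 0.19.

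**Figure D2:**
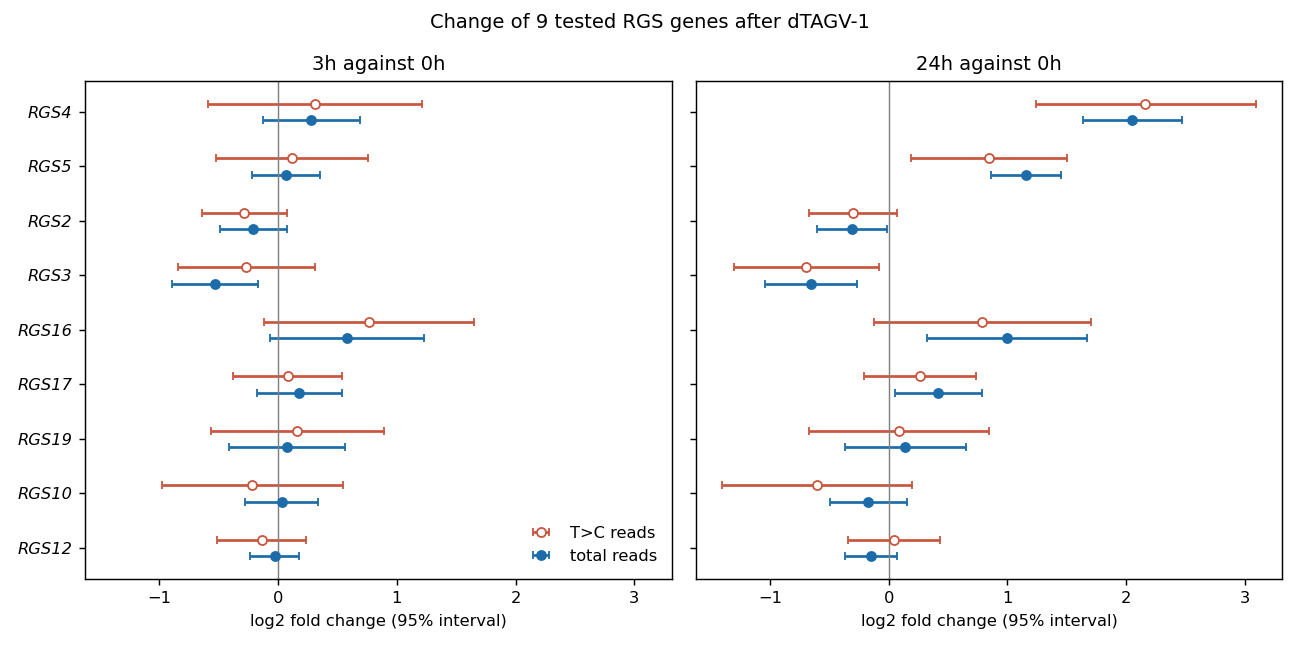
Log2 fold changes (horizontal axis) of the 9 RGS genes above the filter at 3h and at 24h against 0h, with 95% intervals from the DESeq2 standard errors. Open points show T>C reads and filled points total reads. At 24h RGS4 and RGS5 stood farthest to the right in total reads, at 2.05 and 1.16, and RGS3 farthest to the left, at -0.65. RGS4 was picked on these values.

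The share of a gene's reads that carry a conversion after 2 h of label is higher for RNA that is replaced faster. It also depends on how many T bases lie in the sequenced window, whose part was not tested. Over 10691 genes the median share at 0h was 26.98%. RGS2 stood at 61.15% ± 7.08 (SD, n = 3), above 95.9% of genes, RGS17 at 58.06% ± 2.89, above 94.2%, and RGS4 at 53.18% ± 18.6, above 90.0%. RGS16 had 53.5% ± 16.7 on few reads, RGS19 44.55% ± 5.31 and RGS3 37.04% ± 10.1. RGS12 stood at 25.31% ± 1.84, near the median gene. RGS5 (17.03% ± 5.89) and RGS10 (14.77% ± 0.966) lay lowest, above 25.9% and 19.6% of genes. From RGS2 to RGS3 each neighbour in this order differed by less than the larger SD of the pair, as did RGS5 from RGS10.

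The share of RGS4 at 0h was 43.96% in S9CC13_R6, 74.59% in S9CC47_R5 and 40.99% in S9CC47_R6, and at 24h 53.63%, 52.86% and 59.52%. It was lower at 24h in S9CC47_R5 and higher in the other cultures, and the 0h values spanned all those at 24h. Over the whole library, the share in the same cultures was 18.5%, 20.1% and 18.8% at 0h and 19.8%, 20.4% and 21.3% at 24h. For RGS5 the share was 12.81% ± 0.946 at 24h, against 17.03% at 0h. In the test of the T>C to unconverted ratio, limma called 0 of the 8 members at 3h and 0 at 24h, with 0 at an unadjusted p-value under 0.05 at either time. It called 0% of 10642 genes at either time, and 714 genes at 3h and 656 at 24h had an unadjusted p-value under 0.05.

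**Figure D3:**
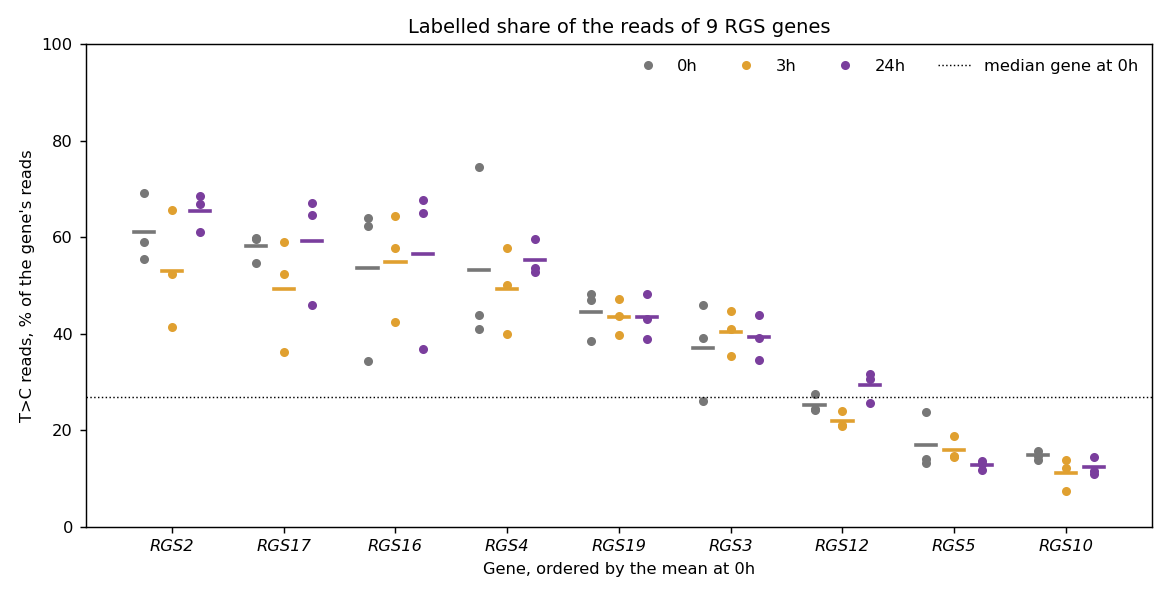
T>C reads as a percent of all reads of each gene (vertical axis) for the 9 RGS genes above the filter, ordered by the mean at 0h. Points are the 3 cultures, horizontal bars their mean, colours the time in dTAGV-1, and the dotted line marks the median gene at 0h, 26.98%. RGS5 and RGS10 lie below the line in every sample and RGS2, RGS17, RGS16, RGS4 and RGS19 above it in every sample.

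Because RGS4 and RGS5 adjoin, the other coding genes with a start within 1 Mb of RGS4 were read too, chosen for position alone. Of 13 such genes, RGS4 included, 12 were in the tables and 9 were tested in T>C reads. NUF2, a kinetochore protein whose outermost start is 197.8 kb from that of RGS4 and 63.7 kb upstream of the canonical RGS5 start, had a log2 value of 0.14 in total reads at 24h (SE 0.0977, DESeq2 adjusted p = 0.418). On the other side lay UAP1, an enzyme of UDP-GlcNAc synthesis. It was called higher in T>C reads at both times (0.82, adjusted p = 0.0249 and 0.78, adjusted p = 0.0297). In total reads UAP1 was called higher at 24h alone (0.54, DESeq2 adjusted p = 0.00935). HSD17B7, a sterol synthesis enzyme, was called higher in total reads at both times (0.59, adjusted p = 0.000924, then 0.60, adjusted p = 0.000401). DDR2, a collagen receptor, was higher in T>C reads at 3h (0.37, adjusted p = 0.000721) and in total reads at 24h (0.25, adjusted p = 0.00592). UHMK1, NOS1AP and C1orf226 were not called. Among all tested genes, the share called in newly made RNA was 1.79% for 3h and 4.98% for 24h. For total reads it was 1.89% and 15.0%. With so few neighbours, these calls describe the named genes and not the region.

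**Figure D4:**
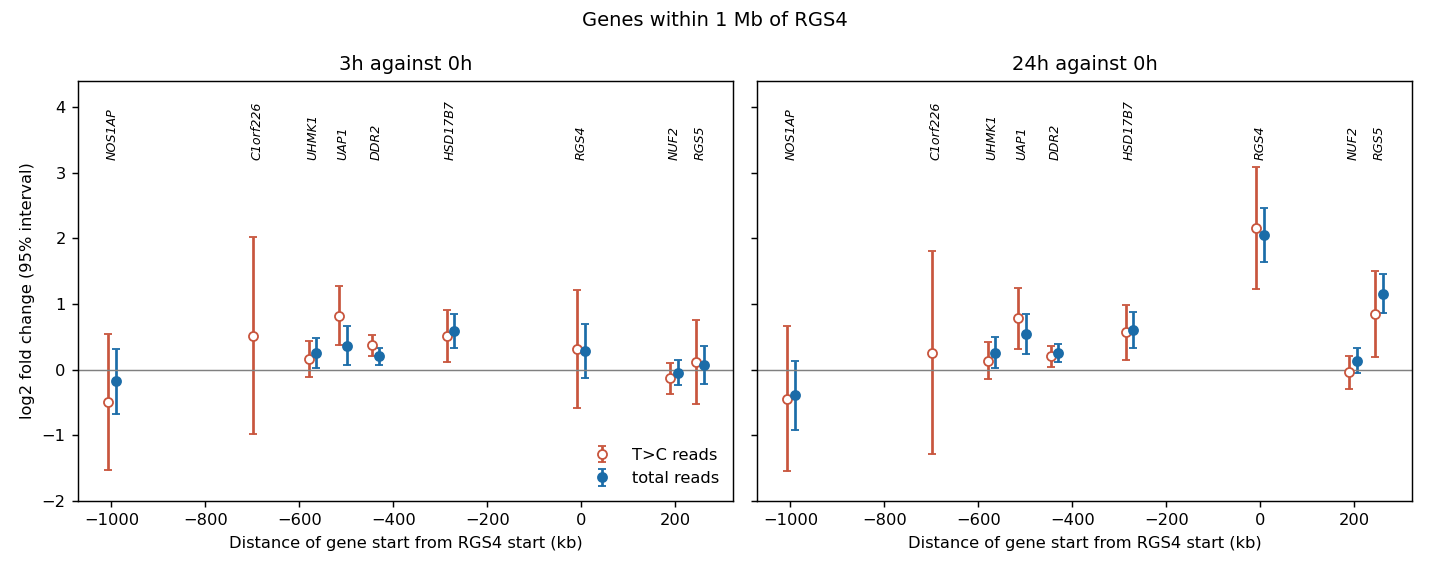
Log2 fold change (vertical axis, with 95% intervals) of genes within 1 Mb of RGS4 against the distance of their outermost annotated start from that of RGS4 in kb, at 3h and at 24h against 0h. Open points show T>C reads and filled points total reads, drawn slightly apart. At 24h RGS4 and RGS5 stood highest in total reads, at 2.05 and 1.16, and NUF2, plotted between them, was at 0.14.

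The genes whose profile over the 9 samples was most like that of RGS4 were named by Pearson's r of log2 normalized reads. Of T>C reads, among 8676 genes, these were GABPB1 (0.969), SOX11 (0.963), CDC123 (0.955), COL1A1 (0.941) and SEPT6 (0.938). Of total reads, among 10633 genes, they were SOX11 (0.963), RGL1 (0.963) and PIGK (0.959). SOX11, a transcription factor of progenitor cells, had a mean of 5339 T>C reads before dTAGV-1, 5524 after 3h and 6851 after 24h. COL1A1, the chain of type I collagen, had 37.77, 45.09 and 78.34. Among the members, RGS17 (0.772, rank 538) and RGS5 (0.763, rank 597) were closest to RGS4 in total reads, and RGS12 (-0.694) was farthest. In T>C reads r was 0.61 for RGS5 (rank 927) and 0.543 for RGS17 (rank 1283). The 9 points share cultures and times, RGS4 was picked for its late rise, and r is given as a description.

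The rest of the G protein pathway was read from lists of the components that RGS proteins act with. These lists were chosen with earlier results of these data known, so the counts of called genes are descriptions. In T>C reads at 24h against 0h, 3 of 11 tested G alpha genes were called, where 4.98% of all tested genes were called at 24h and 1.79% at 3h. GNAS, which encodes Gs alpha, rose by 0.62 (DESeq2 adjusted p = 1.29e-05), GNAQ, which encodes Gq alpha, rose by 0.29 (adjusted p = 0.0797) and GNAI2, a Gi alpha gene, changed by -0.40 (adjusted p = 0.059). At 3h 0 of these 11 were called, with a median of 0.07 over the list. Of 12 G beta and gamma genes, 1 was called at 3h (GNG2, -0.63, adjusted p = 0.0766) and 0 at 24h. Of 10 other regulators of G alpha, CCDC88C, a Gi-binding exchange factor also known as Daple, was called lower at 3h (-1.06, adjusted p = 2.3e-07) and at 24h (-3.10, adjusted p = 7.43e-46).

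Of 9 receptor kinases and arrestins, ARRB2, which encodes an arrestin that uncouples receptors, was called lower at 24h (-0.65, adjusted p = 0.0174). Of 22 receptors, 3 were called at both times, beside 1.79% of all genes at 3h and 4.98% at 24h. S1PR3, a receptor of sphingosine 1-phosphate, rose by 0.91 at 3h and 1.34 at 24h. ACKR3, a chemokine receptor that signals through arrestin, rose by 0.70 and 1.21. OPRD1, the delta opioid receptor, changed by -2.37 and -1.82. None of the 5 adenylyl cyclases, 4 phospholipase C beta genes, 3 RhoGEFs with an RGS domain or 3 other RGS genes tested was called in T>C reads at 3h or 24h against 0h. The list medians at 24h ran from -0.20 for adenylyl cyclases to 0.17 for the RhoGEFs, beside 0.00147 for all genes.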

How the data were processed

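Raw counts by gene symbol were deposited in 2 tables, of total reads and of T>C reads, with a column for each of the 9 samples. According to the methods, reads were trimmed and mapped and counted with slamdunk (hg38 in the processing notes). No molecular identifiers are stated. Library totals limit the precision of low genes such as RGS16 and RGS20.

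A single DESeq2 1.42.0 model in R 4.3.3 took the counts of all 9 samples, with time, batch and 1 surrogate variable from svaseq (sva 3.50.0), over protein-coding genes at 1 CPM or more in 3 or more samples, with independent filtering off. Calls took a Benjamini-Hochberg adjusted p-value under 0.1. Unconverted reads are total minus T>C reads. Log2 ratios of T>C to unconverted reads (0.5 added to each) were centred per library and tested with limma 3.58.1 on genes with a mean of at least 50 reads. Alternatives were edgeR 4.0.16 with TMM, TMM factors in DESeq2, size factors from total reads, batch alone, the culture as a replicate block, no filter, an adjusted p-value under 0.05 and each culture left out. Scripts were tested on simulated data.

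All members were named. Of the pathway lists, genes called in T>C reads at 3h or 24h against 0h were named, with the 5 (T>C) and 3 (total) genes most like RGS4. Members and lists were chosen with earlier results of these data known. Cultures pair samples across times by the clone and batch in the titles, and deviations from group means correlated within cultures at a mean r of 0.131 in T>C reads and 0.273 in total reads.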

Additional observations from a re-analysis of the deposited data

Results flagged for a closer look

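The change of RGS5 total reads from 0h differed between times, in the 24h against 3h comparison already given above. Untagged cells given dTAGV-1 were not among the samples, and the cause was not tested. The 24h change exceeded the 3h change by 1.088 on the log2 scale (SE 0.16, DESeq2 adjusted p = 3.74e-09), with RGS5 higher at 24h than at 3h in 3 of 3 cultures. The value stayed past the threshold in each alternative fit run on it, with each culture left out (0.979 to 1.281) included.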

How the results depend on the processing

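Member counts moved in these settings. In T>C reads at 24h, edgeR called 1 member (RGS5) in place of 0, and 968 genes over all in place of 599. In total reads at 24h, leaving out a culture gave 0 to 1 called members in place of 3. It was 0 without S9CC47_R6, and RGS5 without either of the others. Calls over all genes fell too, from 1751 to 154 without S9CC13_R6, 719 without S9CC47_R5 and 56 without S9CC47_R6. In unconverted reads at 24h, RGS5 alone was called, in place of 2 members, at an adjusted p-value under 0.05, with no filter and with any culture left out. Over all genes 980 were called at the stricter threshold and 1389 with no filter, beside 1396 in the main fit. Without S9CC13_R6, S9CC47_R5 or S9CC47_R6, the calls over all genes numbered 131, 542 or 239. The fits without a culture hold 6 samples. With the culture as a replicate block, total reads at 24h gave 3 called members (RGS3, RGS5 and RGS17, with RGS17 in place of RGS16). Over all genes 1717 were called in that fit. No other call of a member changed with the block.

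Values that changed sign were uncalled or, for RGS4, untested. With a culture left out, T>C values at 3h ran from -0.440 to 0.007015 for RGS3, from -0.1794 to 1.046 for RGS4, from -0.3235 to 0.7672 for RGS5, from -1.016 to 0.06437 for RGS10, from -0.1552 to 0.04017 for RGS12 and from -0.3976 to 0.1951 for RGS17. At 24h they ran from -0.02859 to 0.13 for RGS12 and from -0.1644 to 0.225 for RGS19, and RGS12 was -0.02536 with the replicate block and -0.01782 with batch alone. At 24h against 3h the RGS5 value ran from -0.01565 (without S9CC47_R6) to 0.7172. In total reads at 3h they ran from -0.05751 to 0.3626 for RGS4, from -0.04616 to 0.07876 for RGS5, from -0.1387 to 0.2253 for RGS10, from -0.02795 to 0.000883 for RGS12 and from -0.04365 to 0.2041 for RGS17, and at 24h from -0.3581 to 0.137 for RGS10 and from -0.114 to 0.3682 for RGS19. The cause was not tested. The 24h values of RGS4, RGS5, RGS3 and RGS16 against 0h kept their sign in every setting, in T>C and total reads.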

Other observations

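In total reads, further genes of the G protein pathway were called at 24h against 0h, named here after their values were seen. Over all genes tested, 15.0% were called in this comparison. Among 11 tested G alpha genes, 5 were called. GNAI1, a Gi alpha gene, rose by 0.59 (DESeq2 adjusted p = 0.0169), while GNAO1, which encodes Go alpha, changed by -1.15 (adjusted p = 0.0162), and GNAS, GNAQ and GNAI2 had the directions of their T>C reads. Of 12 G beta and gamma genes, GNG11 rose by 0.45 (adjusted p = 0.0218), and GNB5, the partner of R7 RGS proteins, and GNG4 changed by -0.50 (adjusted p = 0.0326) and -0.37 (adjusted p = 0.048). ADCY6, an adenylyl cyclase that Gi inhibits, changed by -1.20 (adjusted p = 5.78e-05), 1 call among 6 cyclases. PLCB1, the phospholipase that Gq activates, rose by 0.64 (adjusted p = 0.00167), 1 call among 4. Among 10 other regulators of G alpha, CCDC88C was lower and GPSM3 higher (0.71, adjusted p = 0.0721). Among 9 receptor kinases and arrestins, ARRB2 was lower and ARRDC3 higher (0.27, adjusted p = 0.0951). Among 18 receptors, 6 were called. S1PR3, ACKR3 and GPRC5C (0.505, adjusted p = 0.0763) were higher, and OPRD1, LPAR2 (-0.484, adjusted p = 0.0177) and P2RY1 (-0.445, adjusted p = 0.0746) lower.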
